A study of Mus musculus with 18 samples.

Results

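Oxidative phosphorylation subunits were taken as the protein-coding genes whose symbols begin with Nduf (followed by a, b, c, s or v and a number), Sdh, Uqcr, Cox4 to Cox8, Atp5, mt-Nd, mt-Co, mt-Cytb or mt-Atp. Of the 47729 genes in the count table, 101 matched by symbol, and 97 had at least 10 reads in at least 3 of the 18 libraries. These 97 members comprised 84 nuclear genes and the 13 protein-coding genes of the mitochondrial genome. The nuclear members belonged to complex I (35 genes), complex II (8 genes), complex III (8 genes), complex IV (16 genes) and complex V (17 genes). The name rule also took in 6 genes that are not subunits in the strict sense, namely the assembly factors *Sdhaf1* to *Sdhaf4*, the coupling factor gene *Atp5s* and the supercomplex factor *Cox7a2l*. The 4 matching genes with too few reads were *Cox4i2* (96 reads over all libraries), *Cox6a2* (22 reads), *Cox7b2* (1 read) and *Cox8c* (0 reads).

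The libraries held colon RNA of WT mice and of mice without claudin-2, a tight junction protein that forms a pore for cations and water (*Cldn2*KO), and the methods name C57BL/6 mice and littermate controls. Mice of each genotype were untreated (control), were recovering from colitis induced with dextran sulfate sodium (DSS), which injures the epithelium, or had received a dose of 10 mg/kg of the carcinogen azoxymethane followed by 3 cycles of 2.5% DSS (AOM/DSS). Each of the 6 groups had 3 libraries. Neither the age of the mice nor the length of the recovery was given in the sources used here.

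In oxidative phosphorylation, complexes I and II pass electrons from NADH and succinate to ubiquinone, complex III passes them to cytochrome c, and complex IV passes them to oxygen. Complexes I, III and IV pump protons across the inner mitochondrial membrane, and complex V, the ATP synthase, uses the gradient to make ATP. Complex II is built of nuclear subunits alone, whereas the other complexes join nuclear subunits to proteins made inside the mitochondrion, so the genomes have to supply matching parts. Mature colonocytes are known for their reliance on this pathway, since they oxidize butyrate from the gut bacteria.

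Depth ranged from 17.6 to 27.4 M reads per library. *Cldn2* itself stood at 44.5 to 504 CPM (reads per 1e+06 reads of the library, scaled with TMM factors) in the 9 WT libraries and at no more than 0.557 CPM in the 9 *Cldn2*KO libraries. All libraries were labelled colon, and the study names the distal colon for its recovery mice. *Hoxb13*, a gene of the posterior colon, lay between 198 and 570 CPM in 11 libraries and at 0.502 CPM or less in the 7 others, which were all 6 recovery libraries and WT control replicate 2. In *Cldn2*KO mice recovery and the loss of this posterior signal can therefore not be told apart. In WT mice WT control replicate 2 alone parts them, and a single library does not separate them reliably. *Xist*, which marks female tissue, exceeded 100 CPM in 6 libraries (replicates 2 and 3 of WT recovery, of *Cldn2*KO recovery and of *Cldn2*KO AOM/DSS) and did not exceed 1.16 CPM in the 12 others. No control library and no WT AOM/DSS library was thus among the 6, although the methods describe mice matched for age and sex. WT recovery replicate 2 stood apart in another way, with short transcripts high as a class. In tissue RNA, fewer cells of a type and less RNA per cell cannot be told apart. The labels tie no library to an animal, although the study describes its groups as mice and *Xist* differed within 3 of the groups, so the p-values measure the spread between these libraries.

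Among cell markers, the sum over 10 smooth muscle genes lay between 854 and 2264 CPM in the recovery libraries, between 4162 and 6194 CPM in WT control and between 8386 and 10803 CPM in *Cldn2*KO control. In recovery against control 7 of the 10 fell in WT mice (10 without WT recovery replicate 2) and all 10 in *Cldn2*KO mice (edgeR, adjusted p under 0.05), and none was at 0 in any library. The sum over 6 mature colonocyte genes was higher in the 7 libraries without *Hoxb13* (13886 to 53054 CPM) than in the 11 others (369 to 11678 CPM). That sum was carried by the carbonic anhydrase *Car1*, at 8171 to 45440 CPM against 102 to 4318 CPM, while 3 of the 6 genes fell in recovery against control in each genotype, among them *Slc26a3* and *Ms4a12*, and *Guca2a* rose in *Cldn2*KO mice (log2 fold change 2.77). The WT count rested on the libraries that stand apart. Without WT recovery replicate 2, *Aqp8* was the 1 gene of the 6 that fell, and without WT control replicate 2 *Ms4a12* fell while *Car1* and *Guca2a* rose. The sum over 8 immune genes lay between 854 and 1069.6 CPM in WT control and between 49.4 and 580 CPM in the 5 other groups, and was carried by *Jchain* and *Lyz2*. In WT recovery *Jchain*, *Lyz2*, *Cd79a* and *Adgre1* fell, and in *Cldn2*KO recovery *Jchain*, *Lyz2* and *Adgre1* fell while the T cell genes *Cd3e* and *Cd8a* rose (log2 fold changes 3.70 and 3.26). Without WT control replicate 2 the T cell genes *Cd3e*, *Cd3g* and *Cd8a* also rose in WT recovery. Adipocyte markers summed to 25.6 to 128 CPM in the 7 libraries and to 0.861 to 3.18 CPM in the 11 others, carried by *Adipoq* and *Cidec*, while *Lep* was at 0 in 11 libraries. The sum over 8 epithelial genes lay between 18606 and 19724 CPM in WT control and between 10482 and 14763 CPM in WT recovery, with no overlap, and *Vil1*, *Cdh1*, *Cldn7*, *Krt20* and *Krt19* of the list fell there. In *Cldn2*KO mice it lay between 14613 and 17635 CPM in control and between 10169 and 16473 CPM in recovery, with none of the 8 called by edgeR. Skeletal muscle markers overlapped between the 7 and the 11 libraries but not between control and recovery, at 16.8 to 18.6 CPM against 6.1 to 11.8 CPM in WT mice and 14.7 to 23.9 CPM against 4.82 to 10.1 CPM in *Cldn2*KO mice. Of the 6 tested 2 fell in WT recovery (*Tnni2* and *Myh2*, with 4 without WT control replicate 2) and 3 in *Cldn2*KO recovery (*Ckm*, *Tnnt3* and *Myh2*). Neuronal and glial markers (9.46 to 77.3 CPM) overlapped between the 7 and the 11 libraries. The part of these cells in the subunit levels below was not tested.

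Counted together, the nuclear members took 1.6% to 3.2% of all reads of a library and the mitochondrially encoded members took 3.71% to 9.28%. The nuclear sum was 22376 ± 2759 CPM (SD, n = 3) in WT control, 30885 ± 9023 CPM in WT recovery and 16584 ± 3331 CPM in WT AOM/DSS. In *Cldn2*KO mice it was 19732 ± 1302 CPM in control, 21597 ± 773 CPM in recovery and 16210 ± 2055 CPM in AOM/DSS. The mean was highest in recovery and lowest in AOM/DSS in each genotype. Control and recovery libraries overlapped in each genotype, and in WT mice so did control and AOM/DSS libraries. WT control replicate 2 (25474 CPM) lay above WT recovery replicate 1, and WT AOM/DSS replicate 1 (20237 CPM) lay above WT control replicate 1 (20183.5 CPM). The WT recovery mean rested on replicate 2, which reached 41225 CPM where replicates 1 and 3 had 24607 and 26822 CPM. Without that library the ratio of the WT recovery to the WT control mean moved from 1.38 to 1.15.

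The mitochondrial sum split the libraries in another way. It was 81302, 100304 and 105710 CPM in WT recovery and 99645, 85796 and 72064 CPM in *Cldn2*KO recovery. WT control held 39176, 96270 and 42546 CPM, and *Cldn2*KO control held 52705, 61621 and 37210 CPM. The 7 libraries without *Hoxb13* (72064 CPM and above) did not overlap with the 11 others (65332 CPM and below), and WT control replicate 2 sat among the recovery libraries. AOM/DSS libraries ranged from 32828 to 65332 CPM in WT and from 33375 to 45442 CPM in *Cldn2*KO. The ratio of mitochondrial to nuclear sum ran from 1.77 in *Cldn2*KO control replicate 3 to 4.59 in *Cldn2*KO recovery replicate 1. Its group means of 2.57 (WT control), 2.58 (*Cldn2*KO control), 3.23 (WT recovery), 3.98 (*Cldn2*KO recovery), 2.88 (WT AOM/DSS) and 2.46 (*Cldn2*KO AOM/DSS) had SDs of 0.432 to 1.05, so that most neighbours in this order lay within the spread.

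**Figure D1:**
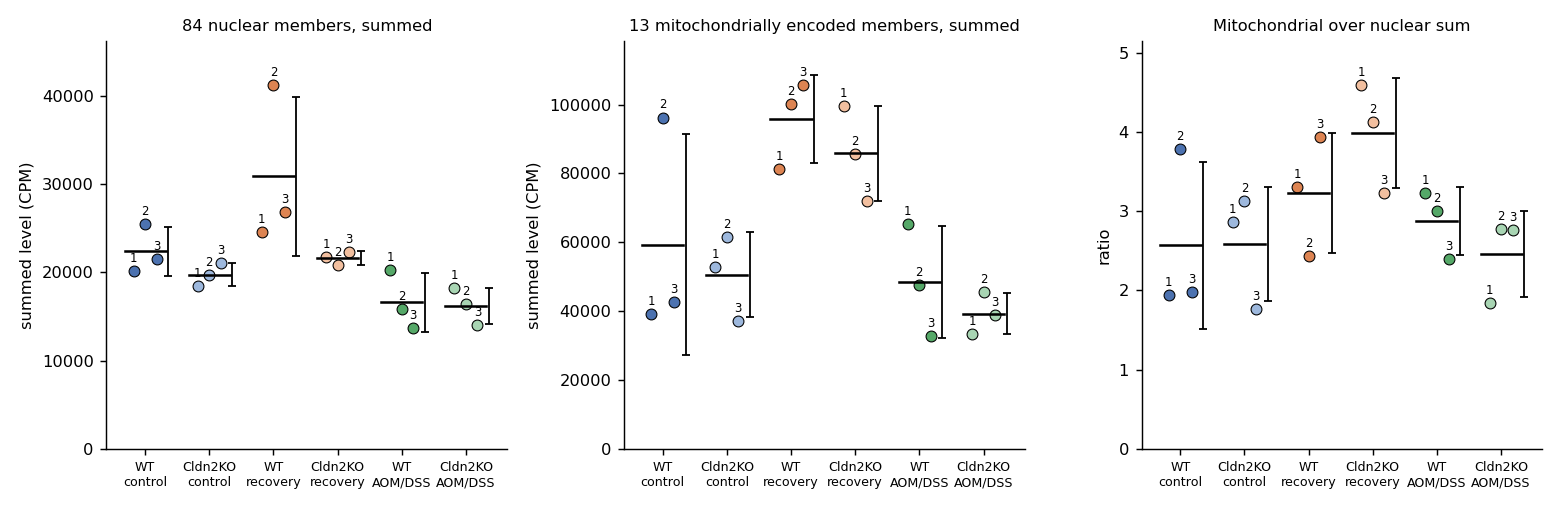
Summed level of the 84 nuclear members (left, CPM), of the 13 mitochondrially encoded members (middle, CPM) and their ratio (right) in the 18 libraries. Points are libraries with their replicate number, horizontal bars are group means and vertical bars are ± 1 SD (n = 3); the mitochondrial sum of WT control replicate 2 (96270 CPM) lies among the recovery libraries, and the nuclear sum of WT recovery replicate 2 (41225 CPM) lies above all others.

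Only 7 of the 13 mitochondrially encoded members were well counted. *mt-Co1*, the catalytic subunit of complex IV, had 13171266 reads over the 18 libraries, and *mt-Cytb*, *mt-Nd1*, *mt-Nd5*, *mt-Nd4*, *mt-Nd2* and *mt-Nd6* had between 506713 and 3341614 reads each. The other 6, which lie next to each other on the mitochondrial genome between *mt-Co1* and *mt-Nd4*, had 5850 (*mt-Co2*), 317 (*mt-Atp8*), 2455 (*mt-Atp6*), 3650 (*mt-Co3*), 238 (*mt-Nd3*) and 191 reads (*mt-Nd4l*). Mitochondrial messages are cut from long precursor transcripts that neighbouring genes share. The same stretch of the mouse genome has an annotated copy on chromosome 1 (GRCm38, annotated as unprocessed pseudogenes between positions 24611535 and 24616197), and a read that matches a gene and its copy alike cannot be placed. The pseudogenes themselves held 564 to 5238 reads each.

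The closeness of the copy can be read from the sequences, taken from the GENCODE M21 transcripts (GRCm38). The stretches below show the first bases of *mt-Nd3* with its copy *Gm28438*, and bases of *mt-Co1* with its copy *Gm29216*, with the only differing base in capitals. In the stretch of *mt-Co2* (chrM:7313-7393) and *Gm28661* (chr1:24615185-24615265, minus strand) no base differed.
mt-Nd3 (chrM:9459-9501, plus strand): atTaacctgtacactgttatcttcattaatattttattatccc
Gm28438 (chr1:24613077-24613119, minus strand): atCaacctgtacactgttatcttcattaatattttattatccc
mt-Co1 (chrM:6390-6433, plus strand): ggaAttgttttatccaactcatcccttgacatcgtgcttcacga
Gm29216 (chr1:24616145-24616188, minus strand): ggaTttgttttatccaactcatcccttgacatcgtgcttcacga
mt-Co2 and Gm28661: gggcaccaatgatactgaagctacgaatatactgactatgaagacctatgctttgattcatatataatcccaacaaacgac

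Over 345 aligned bases *mt-Nd3* and its copy differed at 1 base (T3C, counted from base 1 of the transcript, mitochondrial base first), and over 483 bases *mt-Co1* and its copy differed at 1 base (A1066T). The aligned 681 bases of *mt-Co2*, 678 bases of *mt-Atp6*, 783 bases of *mt-Co3*, 294 bases of *mt-Nd4l* and 876 of the 1378 bases of *mt-Nd4* held no difference. The handling of reads with several matches was not stated, and its part in the low counts was not tested. No copy of *mt-Atp8* was found among the annotated transcripts, so its low count has no such match beside it, though it overlaps *mt-Atp6*. Values for these 6 genes are given as uncertain, and *mt-Co1* and *mt-Nd4* may miss part of their reads. *mt-Nd5* and *mt-Nd6* overlap on opposite strands and the use of strand was not stated, so their reads may be mixed.

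**Figure D2:**
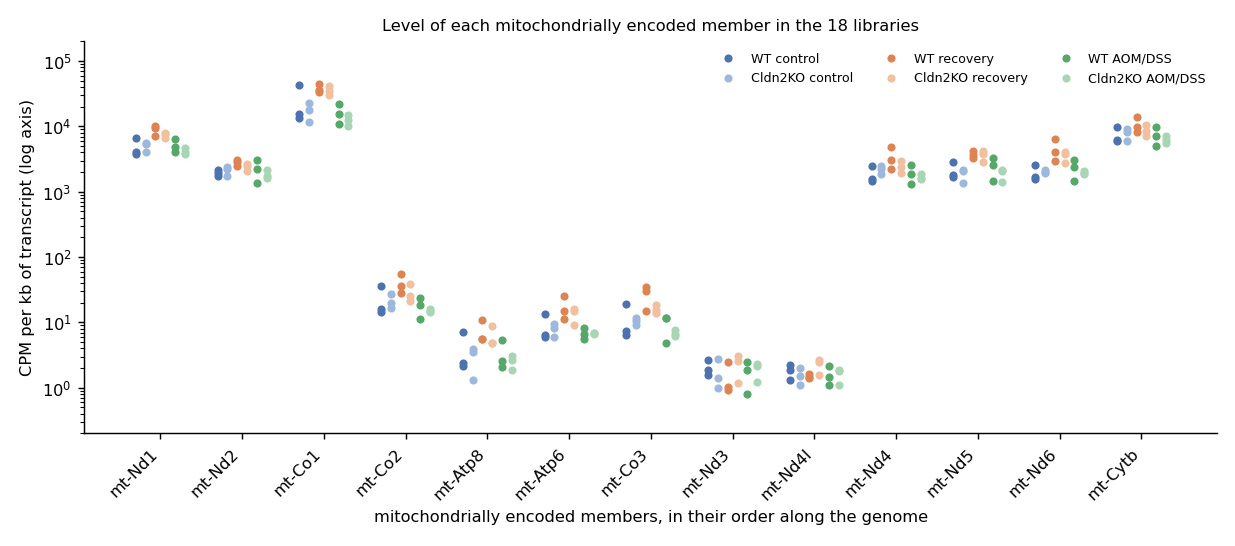
CPM per kb of transcript (log axis) of each mitochondrially encoded member, placed in their order along the mitochondrial genome, with the 18 libraries as points coloured by group. The 6 genes from mt-Co2 to mt-Nd4l lie orders of magnitude below their neighbours in every library.

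Per kb of transcript, *mt-Co1* was the most abundant member, at 23904 CPM per kb in WT control, 37786 in WT recovery and 16000.3 in WT AOM/DSS. It was followed in WT control by *mt-Cytb* (7327), which carries electrons within complex III, and by *mt-Nd1* (4791), a membrane subunit of complex I. The highest nuclear members on this scale were *Cox8a* (1354), *Atp5b* (1078) and *Cox6a1* (1067). *mt-Co1* held 54.6% to 69% of the mitochondrial subunit reads in the 7 libraries without *Hoxb13* and 46.8% to 57.5% in the 11 others. Its level there was 46173 to 68606 CPM against 15631 to 35456 CPM. Summed without it, the mitochondrial members overlapped, at 25891 to 45539 CPM against 16287 to 31490 CPM. *mt-Nd1* also did not overlap (6250 to 9806 CPM against 3632 to 6102 CPM), whereas *mt-Cytb*, *mt-Nd2*, *mt-Nd4*, *mt-Nd5* and *mt-Nd6* did.

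Recovery was compared with control in WT mice to ask how the pathway stood after the colitis had passed. Most members were higher in recovery, and no complex was left out. By edgeR's quasi-likelihood test over 16937 genes (adjusted p under 0.05), 35 of 97 members rose and 1 fell, or 37.1% of the members, where 22.2% of all genes tested were called in either direction. The 35 were 32 nuclear members and *mt-Co3*, *mt-Nd6* and *mt-Nd1*. The median log2 fold change was 0.62 over the nuclear members and 0.83 over the mitochondrial ones, beside -0.04 over all genes. Without WT recovery replicate 2 the nuclear median was 0.29. By complex, 12 of 35 nuclear members of complex I rose, 4 of 8 of complex II, 5 of 8 of complex III, 5 of 16 of complex IV and 6 of 17 of complex V.

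The count depended on few libraries. It fell to 3 without WT recovery replicate 2 (*Ndufa4*, *Ndufc2* and *Ndufa4l2*), so the other calls of this comparison were not made there, to 3 without WT control replicate 1 and to 9 without WT control replicate 3, and it was 20 without both libraries that stand apart, 14 of them among the original 36. Of all genes, 14.8% were called with WT recovery replicate 2 left out, and 21.7% with both of these libraries left out. The 3 and 20 of 97 members did not exceed these shares, so the excess of members was not kept in either fit. With only WT control replicate 2 left out it was kept, at 42 of 97 members beside 25.1% of all genes. A single member was called when only the 6 libraries compared were fitted, 1 with *Hoxb13* as a covariate and 5 with *Xist* as a covariate. The *Hoxb13* covariate varied within WT control alone, so its estimate rests on WT control replicate 2. Under it, comparisons of recovery with control or with WT control depend on that single library, and do not decide the part of the posterior signal. *Xist* exceeded 100 CPM in recovery libraries and in no control library, so its covariate is partly aligned with recovery. DESeq2 called 51 members (52.6%, where it called 27.2% of all genes to which it gave an adjusted p) and limma-voom 64 (66%, beside 48% of all genes), and each included all 36.

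The member with the largest rise was *Ndufa4* (GRCm38, chr6:11900292-11907497, minus strand), a small protein first assigned to complex I that is now placed in complex IV. It stood at 144, 139 and 183 CPM in WT control and at 351, 746 and 371 CPM in WT recovery. The groups did not overlap, and all 3 recovery libraries were well above the control libraries, with replicate 2 the highest. The log2 fold change was 1.65 with an SE of 0.257 (edgeR, adjusted p = 0.00104). Each of the 18 alternatives kept this call, at adjusted p values of 5.4e-08 to 0.0269, and it was the member still called with *Hoxb13* as a covariate and in the fit of the 6 libraries alone. In *Cldn2*KO mice the levels were 151, 183 and 191 CPM in control and 236, 211 and 202 CPM in recovery, which also did not overlap but were closer, and no call was made there. AOM/DSS libraries held 183, 175 and 265 CPM in WT and 178, 138 and 146 CPM in *Cldn2*KO.

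Of the complex I members, 9 of 28 accessory subunits, which surround the catalytic core, and 3 of 7 nuclear core subunits rose in WT recovery, where 22.2% of all genes were called. Of these, *Ndufc2* was the member still called without WT recovery replicate 2. *Ndufa2* stood at 148, 186 and 158 CPM in WT control and at 205, 569 and 247 CPM after recovery, which on the log2 scale was a rise of 1.05 with an SE of 0.291 (adjusted p by edgeR = 0.0185). Without WT recovery replicate 2 it was 0.45 (adjusted p = 0.117). *Ndufs1*, a core subunit that carries iron-sulfur clusters, moved less but more evenly, from 174, 229 and 188 CPM to 281, 289 and 281 CPM (log2 fold change 0.53, SE 0.161, adjusted p = 0.0292). Replicate 2 held the top *Ndufa2* value by a wide margin, whereas the *Ndufs1* values of the 3 recovery libraries were nearly equal. *Ndufs3*, another core subunit, also rose, but 75.7% of its transcript has copies and its count is uncertain. *Ndufv1*, which binds NADH, was not called in WT (171, 211 and 166 CPM in control, 203, 222 and 202 CPM in recovery).

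In complex II, *Sdhd*, a membrane anchor, rose from 448, 550 and 489 CPM to 619, 984 and 731 CPM (log2 fold change 0.65, edgeR adjusted p = 0.0276), and 3 of the 4 assembly factors rose with it. The catalytic subunits *Sdha* (451, 593 and 436 CPM against 543, 474 and 560 CPM) and *Sdhb* (247, 373 and 243 CPM against 311, 360 and 324 CPM) were not called. In complex III, *Uqcrh*, the hinge protein beside cytochrome c1, went from 406, 511 and 467 CPM to 614, 1531 and 734 CPM (log2 fold change 1.06, SE 0.296, adjusted p = 0.02), and its change was 0.54 without WT recovery replicate 2 (adjusted p = 0.132). *Uqcrb* also rose, but 62.8% of its transcript is matched by a copy elsewhere, so its count is uncertain. The core protein *Uqcrc1* (302, 344 and 276 CPM against 241, 250 and 211 CPM) lay lower in recovery without a call, and the Rieske protein *Uqcrfs1* (301, 602 and 338 CPM against 489, 657 and 511 CPM) was not called either.

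In complex IV, *Cox7a2* rose from 285, 387 and 342 CPM to 388, 976 and 446 CPM (log2 fold change 0.84, edgeR adjusted p = 0.0482, and 0.29 with an adjusted p of 0.369 without WT recovery replicate 2), and *Cox6c*, *Cox7b* and *Cox7a2l* rose as well. *Cox4i1*, which regulates the complex through ATP, held 495, 763 and 478 CPM in control and 542, 726 and 557 CPM in recovery and was not called, and neither was *Cox5a* (165, 241 and 165 CPM against 180, 193 and 183 CPM). In complex V, the parts of the stalk and membrane sector accounted for 5 of the 6 calls, and *Atp5c1*, the rotor subunit of the head, for the other. *Atp5a1* and *Atp5b*, which form the catalytic ring of the head, stayed between 1200 and 2178 CPM in all 6 libraries and were not called. The *Atp5g2* and *Atp5l* calls are uncertain, since 88.2% and 72.2% of their transcripts have copies.

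**Figure D3:**
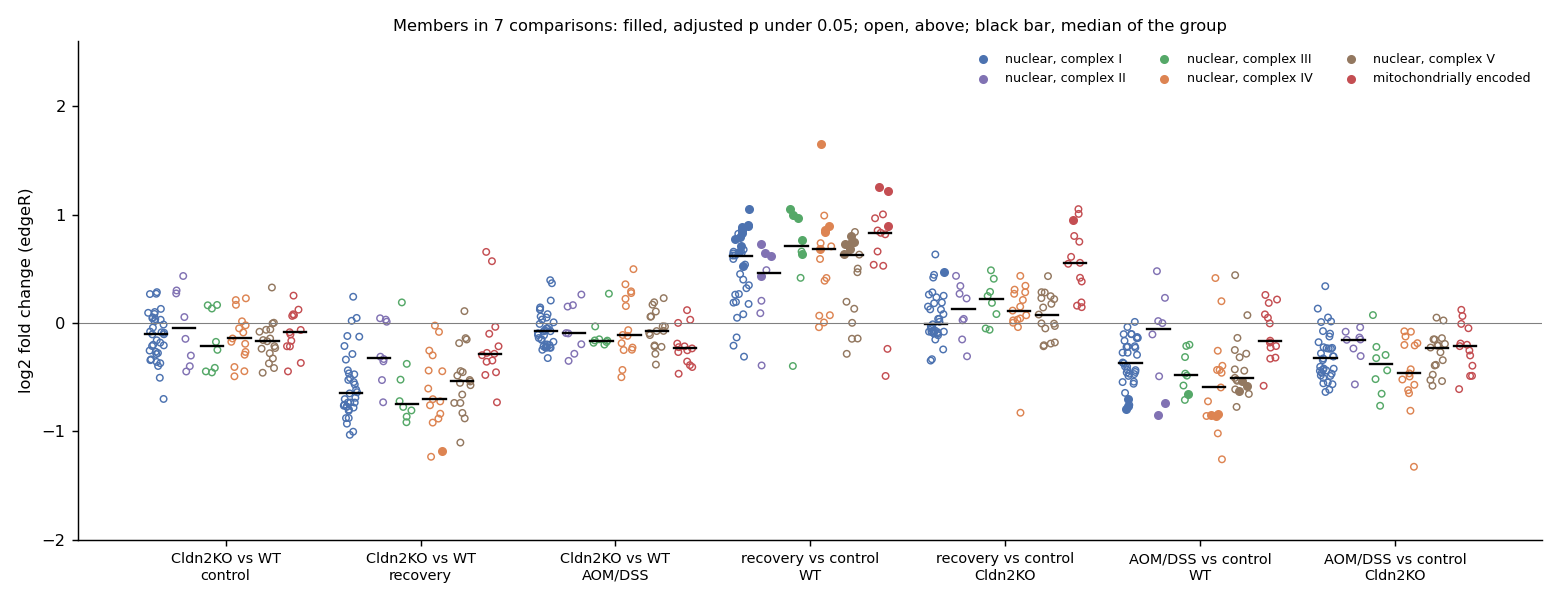
log2 fold change (edgeR) of each member in 7 comparisons, by complex for nuclear members and together for the mitochondrially encoded ones. Filled points passed an adjusted p under 0.05, open points did not, and black bars are medians; Ndufa4l2, which had no reads in WT recovery, is left out. The filled points gather in recovery against control in WT mice (35 higher) and in AOM/DSS against control in WT mice (12 lower).

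Among the mitochondrially encoded members, *mt-Nd1* rose from 3632, 6250 and 3873 CPM in WT control to 6889, 9806 and 8926 CPM after recovery, by 0.90 on the log2 scale with an SE of 0.243 (adjusted p by edgeR = 0.0169). *mt-Nd6*, the only protein gene on the light strand, rose from 871, 1318 and 813 CPM to 1535, 3351 and 2119 CPM (log2 fold change 1.22, adjusted p = 0.0108). *mt-Co3* rose by 1.26 on the log2 scale, from few reads as stated above. Without WT recovery replicate 2 the changes were 0.78 for *mt-Nd1* (edgeR adjusted p = 0.0535), 0.86 for *mt-Nd6* (adjusted p = 0.0557) and 1.01 for *mt-Co3* (adjusted p = 0.135). *mt-Co1* was not called in WT. WT control replicate 2 (66430 CPM) lay within the recovery range of 51767 to 68606 CPM, while the other control libraries had 20809 and 23555 CPM. Without that control library the ratio of the summed mitochondrial means rose from 1.61 to 2.34.

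**Figure D4:**
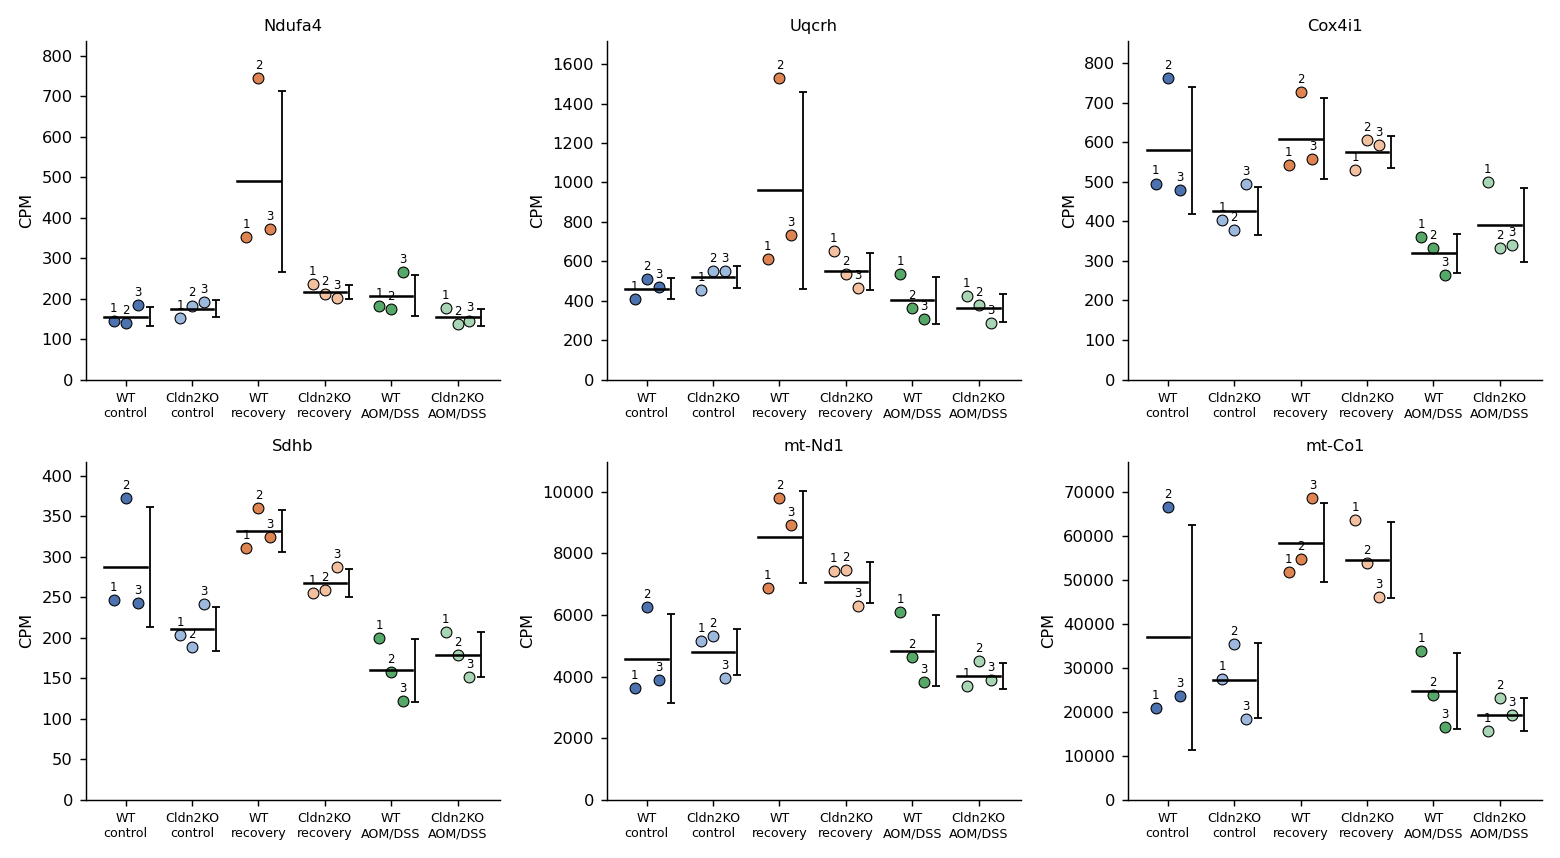
Level (CPM) of 6 members in the 18 libraries: Ndufa4, Uqcrh, Cox4i1, Sdhb, mt-Nd1 and mt-Co1. Points are libraries with their replicate number, horizontal bars are means and vertical bars ± 1 SD (n = 3). Ndufa4 is above 350 CPM only in WT recovery, and mt-Co1 of WT control replicate 2 (66430 CPM) sits with the recovery libraries.

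Some complex IV subunits exist as tissue isoforms, and in WT control the general form exceeded its partner in each pair. *Cox6b1* stood at 794 CPM per kb against 3.18 for *Cox6b2*, the testis form, and *Cox8a* at 1354 against 1.66 for *Cox8b*, a muscle form. *Cox7a2* stood at 513 CPM per kb against 112 for *Cox7a1*, the heart and skeletal muscle form, which was the closest pair. None of these 3 partners was called in any comparison by edgeR. *Ndufa4l2*, a relative of *Ndufa4* known to be induced by hypoxia, had 18, 1 and 13 reads in the WT control libraries, 0 over WT recovery and 6 over *Cldn2*KO recovery. Set against a floor of 3 reads over the group, its level in WT recovery was at least 10.03-fold lower than in WT control with TMM-scaled library sizes (edgeR adjusted p = 0.0126), a bound that covers counting error only. WT control replicate 2, the control library without *Hoxb13*, held the single read and thus lay close to the recovery libraries, and without it the adjusted p was 0.00317. It was the member called lower, and it held 94 reads in all 18 libraries. *Ndufa4l2* reached 10 reads in 4 libraries, among them WT control replicates 1 and 3, and would not have passed the read filter without them. It is thus a member through the group in which it is high, and no support is drawn from its fold or adjusted p.

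In *Cldn2*KO mice, recovery against control gave 2 calls among the 97 members, both higher, where 19.4% of all genes were called. DESeq2 called 6 members (6.19%, beside 23.9% of all genes) and limma-voom 16 (16.5%, beside 34%), so the members were called less often than all genes. *Ndufv1*, the NADH-binding subunit of complex I, stood at 134, 123 and 159 CPM in control and 173, 201 and 203 CPM in recovery, and rose by 0.47 on the log2 scale with an SE of 0.148 (adjusted p by edgeR = 0.0354). *mt-Nd5*, a proton-pumping subunit, stood at 3972, 3844 and 2495 CPM in control and 7700, 6932 and 5257 CPM in recovery (log2 fold change 0.95, SE 0.302, adjusted p = 0.0382). Neither pair of groups overlapped. Left out in turn, 4 of the 6 libraries ended the *Ndufv1* call and 5 of the 6 ended the *mt-Nd5* call, and no member was called without *Cldn2*KO control replicate 1, *Cldn2*KO control replicate 2 or *Cldn2*KO recovery replicate 2. Both calls were also lost with *Hoxb13* as a covariate (adjusted p = 0.871 and 0.892). The median over the nuclear members was 0.06 and that over the mitochondrial members 0.56, with all 13 of the latter above 0. The *Hoxb13* covariate turned the mitochondrial median to -0.37. Its estimate comes from WT control replicate 2, a library outside this comparison, so these values do not decide the part of the posterior signal. In this genotype every recovery library lacked *Hoxb13* and every control library had it. Upper-quartile scaling turned the nuclear median to -0.04.

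*Cldn2*KO was compared with WT within recovery to ask whether the loss of claudin-2 changed the state of the healing colon. Nuclear members were lower in *Cldn2*KO recovery in most cases (75 of 84 below 0, median log2 fold change -0.57 beside 0.00 over all genes), but 1 call was made, *Ndufa4*, where 0.974% of all genes were called. *Ndufa4* stood at 351, 746 and 371 CPM in WT and 236, 211 and 202 CPM in *Cldn2*KO, with no overlap, and fell by 1.18 on the log2 scale (SE 0.254, edgeR adjusted p = 0.0418). The call was lost without WT recovery replicate 2 (log2 fold change -0.76, adjusted p = 0.172), without WT recovery replicate 3 (adjusted p = 0.0535), without *Cldn2*KO recovery replicate 2 (adjusted p = 0.213) and without *Cldn2*KO recovery replicate 3 (adjusted p = 0.0587). Over its alternatives the adjusted p ran from 0.00105 to 0.225. The libraries of the genotypes did not overlap for 54 members (55.7%), where 23.9% of all genes tested did not overlap. DESeq2 called 33 members (35.9% of the 92 to which it gave an adjusted p, beside 10.3% of all such genes) and limma-voom 12 (12.4%, beside 11.2% of all genes), all lower. An unadjusted p under 0.05 by edgeR was found for 54 nuclear members and no mitochondrial one, or 55.7% of the members, where 19.9% of all genes had one. The sum over the immune genes lay between 137 and 232 CPM in WT recovery and between 49.4 and 63.2 CPM in *Cldn2*KO recovery, without overlap, and *Jchain* of that list fell by 2.72 on the log2 scale (adjusted p = 0.0337), a call that was lost without WT recovery replicate 2 (log2 fold change -2.63, edgeR adjusted p = 0.136). The neuronal and glial sum lay between 60.9 and 73.9 CPM in *Cldn2*KO recovery and between 43.2 and 59 CPM in WT recovery, also without overlap. All 6 of these genes and 7 of the 8 epithelial genes were above 0, with none called. The part of these cells in the lower subunit levels was not tested.

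The difference within recovery was larger for shorter transcripts. The median was -0.73 for the 32 nuclear members with transcripts of up to 700 bases, -0.65 for the 17 between 700 and 1000 bases and -0.44 for the 35 longer ones. WT recovery replicate 2 carried this pattern in all genes: against the median of the 18 libraries it stood at 1.16 on the log2 scale for genes of up to 700 bases, at 0.88 between 700 and 1000 bases, at 0.38 up to 2000 bases and at -0.13 above. Its nuclear members stood at 1.28, 1.23, 1.01 and 0.34 in the same classes. Over all genes WT recovery replicates 1 and 3 showed the pattern more weakly, at 0.19 and 0.35 in the shortest class. The *Cldn2*KO recovery libraries stood at -0.06 to 0.04 there. Genes for cytosolic ribosomal proteins, which are also short, summed to 92712 CPM in WT recovery replicate 2 and to 33172 to 60509 CPM in the 17 others. Without WT recovery replicate 2 the nuclear median was -0.33 and the mitochondrial one -0.13, with 0 members called, where 0.092% of all genes were called. With a length trend removed from each library the medians were -0.32 and 0.03, again with 0 called. Leaving out WT recovery replicate 1 raised the count to 15 and leaving out *Cldn2*KO recovery replicate 3 raised it to 2, while it was 0 without WT recovery replicate 3 or *Cldn2*KO recovery replicate 2. These counts stand without the share of all genes called, so nothing about the members is read from them.

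**Figure D5:**
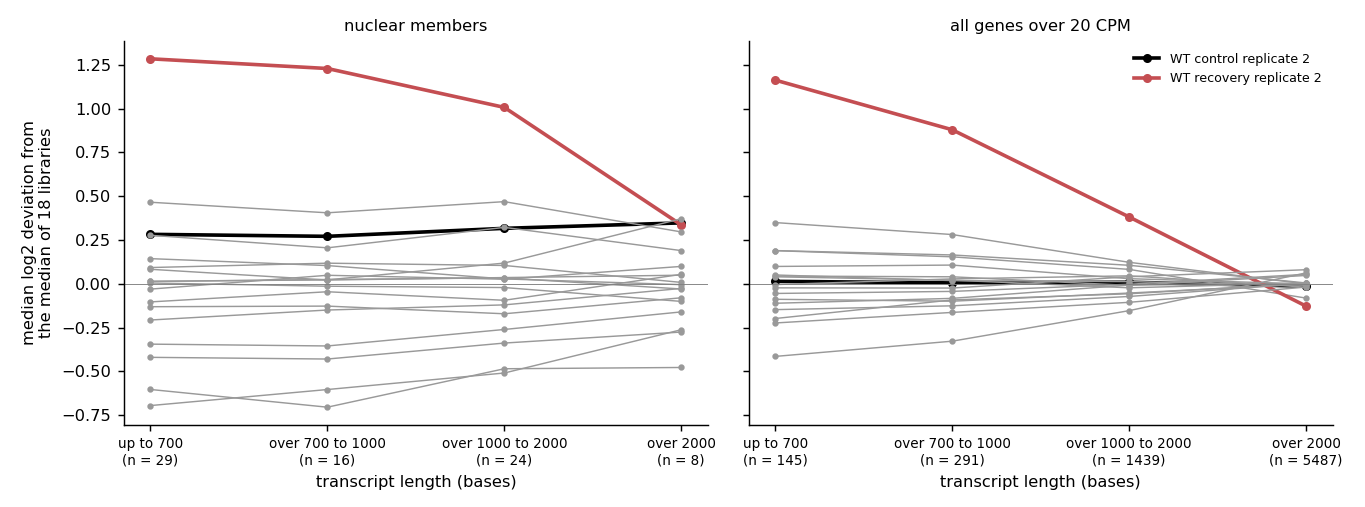
Median log2 deviation of each library from the median of the 18 libraries, in 4 classes of transcript length, for nuclear members over 20 CPM (left) and all genes over 20 CPM (right). The red line is WT recovery replicate 2, the black line WT control replicate 2, and grey lines are the 16 other libraries. WT recovery replicate 2 falls from 1.16 in the shortest class to -0.13 in the longest over all genes.

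In untreated colon, no member was called between *Cldn2*KO and WT by edgeR, where 1.17% of all genes were. There were 13 nuclear members and no mitochondrial one with an unadjusted p under 0.05 (13.4% of the members, where 13.1% of all genes had one). DESeq2 called 2 members (2.06%, beside 4.07% of all genes) and limma-voom 14 (14.4%, beside 15.1%), so these shares are no result about the members. The median was -0.15 over nuclear members. It was -0.08 over all mitochondrial members and 0.07 over the 7 that were well counted, so these had no clear direction. The medians were -0.05 over nuclear and 0.33 over all mitochondrial members without WT control replicate 2. *Atp5a1* stood at 1479, 1694 and 1406 CPM in WT and 1138, 1044 and 1150 CPM in *Cldn2*KO. Its groups did not overlap, yet it was not called. The summed mitochondrial level had no stable direction, since the ratio of *Cldn2*KO to WT means was 0.851 with all libraries and 1.24 without WT control replicate 2. Of the immune genes *Jchain* (log2 fold change -3.81, edgeR adjusted p = 0.0038), *Cd8a* (-3.89, adjusted p = 0.0369) and *Cd3e* (-4.28, adjusted p = 0.0473) were lower in *Cldn2*KO control, where the immune sum lay between 76.3 and 396 CPM against 854 to 1069.6 CPM in WT. The smooth muscle sum was higher there without overlap, as given above, with 0 of the 10 genes called. The epithelial sum was lower there without overlap, at 14613 to 17635 CPM against 18606 to 19724 CPM in WT, with 0 of the 8 genes called. *Jchain* was still called without WT control replicate 2 (edgeR adjusted p = 0.00559), and *Cd8a* and *Cd3e* were not (adjusted p = 0.149 and 0.223). The part of these cells in the values was not tested.

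AOM/DSS was compared with control to ask how the pathway stood in colon after the carcinogen protocol. In WT mice 12 members fell, all nuclear, and none rose. This was 12.4% of the members, close to the 10.4% of all genes called in either direction, so the share is no result about the members. The 12 came from every complex, and the median was -0.43 over the nuclear members. No mitochondrial member was called, and their median was -0.16 over all 13 and 0.08 over the 7 that were well counted. Without WT control replicate 2 the medians were -0.34 over nuclear and 0.26 over all mitochondrial members. The ratio of the summed mitochondrial means turned from 0.818 to 1.19 without WT control replicate 2. This comparison uses the same WT control libraries as recovery against control, so their values enter both. Complex IV contributed *Cox4i1*, at 495, 763 and 478 CPM in control and 359, 333 and 264 CPM in AOM/DSS (log2 fold change -0.86, SE 0.217, edgeR adjusted p = 0.0275). *Cox6a1* and *Cox5a* fell by 0.85 and 0.84 on the log2 scale (adjusted p = 0.0326 and 0.0143), the latter from 165, 241 and 165 CPM to 117, 103 and 97.5 CPM.

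In complex II the iron-sulfur subunit *Sdhb* went from 247, 373 and 243 CPM to 200, 158 and 122 CPM (log2 fold change -0.85, edgeR adjusted p = 0.0225), and the anchor *Sdhc* from 200, 230 and 194 CPM to 133, 125 and 116 CPM (log2 fold change -0.74, adjusted p = 0.0152). The catalytic ring of complex V fell in *Atp5a1* (1479, 1694 and 1406 CPM against 1124, 1044 and 900 CPM, log2 fold change -0.58, adjusted p = 0.0366) and *Atp5b* (2008, 2178 and 2009 CPM against 1560, 1388 and 1324 CPM, log2 fold change -0.54, adjusted p = 0.0409). *Ndufb10*, *Ndufa8* and *Ndufs5* of complex I, *Uqcrc1* of complex III and *Atp5g3* of complex V were the others. The libraries of the groups did not overlap for any of the 12, which is no separate support, since the 12 were called on the same libraries.

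The count was 0 without WT control replicate 2, where 1.99% of all genes were called, so 0 is near that share. Without a share of all genes beside them, the counts were 0 without WT AOM/DSS replicate 3, 4 without WT AOM/DSS replicate 2 and 19 without WT AOM/DSS replicate 1. The count was 0 in the fit of the 6 libraries alone and with *Hoxb13* as a covariate, 2 without both libraries that stand apart, 23 by DESeq2 (23.7%, beside 17.9% of all genes), 21 by limma-voom (21.6%, beside 15.2%) and 30 with the length trend removed. The sum over the mature colonocyte genes lay between 369 and 2641 CPM in WT AOM/DSS against 3795 to 53054 CPM in WT control, and 3 of these 6 genes were called lower, with none at 0. The smooth muscle sum lay between 631 and 3207 CPM against 4162 to 6194 CPM, with 5 of 10 called lower. The epithelial sum lay between 10223 and 12536 CPM against 18606 to 19724 CPM, without overlap, and *Vil1* (log2 fold change -1.31), *Krt20* (-2.01), *Cldn7* and *Krt19* fell. The skeletal muscle sum lay between 7.84 and 10.99 CPM against 16.8 to 18.6 CPM, without overlap. *Ckm* of that list fell (log2 fold change -1.92, edgeR adjusted p = 0.0454), and no gene of it was called without WT control replicate 2. Of 6 neuronal and glial genes 3 fell (list median -1.80), as did the adipocyte gene *Cidec*. Without WT control replicate 2 the numbers called lower were 0 of 10 for smooth muscle (list median -1.54), 1 of 6 for mature colonocytes (*Car4*, list median -1.05 where it was -2.13 with all libraries), 2 of 8 for epithelium (*Vil1* and *Krt20*) and 1 of 6 for neurons and glia (*Elavl4*, list median -1.24). *Cidec* was not called without it (log2 fold change -0.50, edgeR adjusted p = 0.533) and stood at 55.3 CPM in that library against 2.08 and 1.97 CPM in the other WT control libraries. Their part in the lower subunit levels was not tested.

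In *Cldn2*KO mice, AOM/DSS against control gave no call among the members by edgeR, where 0.195% of all genes were called. The median was -0.31 over nuclear and -0.21 over mitochondrial members, and 76 of 84 nuclear members were below 0. The groups did not overlap for 37 members (38.1%), where 29.1% of all genes did not overlap. There were 10 members with an unadjusted p under 0.05 (10.3%, where 15.2% of all genes had one). DESeq2 called 0 members and 3.56% of all genes, and limma-voom called 18 (18.6%, beside 18.3% of all genes). The mature colonocyte sum lay between 1103 and 3014 CPM in AOM/DSS against 8488 to 11678 CPM in control, and the smooth muscle sum between 2615 and 6380 CPM against 8386 to 10803 CPM, both without overlap. No gene of either list was called by edgeR, all 6 and all 10 were below 0, and the list medians were -2.24 and -1.17. Their part in the lower subunit levels was not tested. *Cldn2*KO against WT within AOM/DSS gave no call either, where 0.0059% of all genes (1 gene) were called, and no member had an unadjusted p under 0.05, where 5.6% of all genes had one. DESeq2 and limma-voom called 0 members there. The medians were -0.09 and -0.23.

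The difference between the genotypes in their response was tested directly as an interaction. For recovery 0 members were called (0.13% of all genes), with 30 nuclear members at an unadjusted p under 0.05 (30.9% of the members, beside 18.5% of all genes). DESeq2 made 4 calls (4.4%, beside 7.56% of the genes to which it gave an adjusted p) and limma-voom 4 (4.12%, beside 10.4%). The median interaction over the nuclear members was -0.48, which moved to -0.24 without WT recovery replicate 2 and to -0.16 with the length trend removed. For AOM/DSS 0 members were called (0.0118% of all genes), with 11 nuclear members at an unadjusted p under 0.05 (11.3%, beside 8.44% of all genes) and 0 calls by DESeq2 and limma-voom. The larger number of calls in WT than in *Cldn2*KO mice is thus not shown to be a difference between genotypes.

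Genes that build or supply the complexes were read from lists in the same fits. Their counts stand beside 22.2% of all genes called in WT recovery, 19.4% in *Cldn2*KO recovery and 10.4% in WT AOM/DSS, and nothing particular to a list is read from them. In WT recovery against control, 6 of 14 complex I assembly factors, 1 of 6 of complex III, 6 of 18 of complex IV and 2 of 3 of complex V rose and none fell. *Cox16* and *Pet100*, which help assemble complex IV, rose by 1.16 and 1.03 on the log2 scale, and *Ndufaf6* of the complex I list rose by 1.44 (edgeR adjusted p = 0.00778, 0.0305 and 0.00326). Of 11 coenzyme Q synthesis genes 4 rose, among them *Pdss1*, which makes the side chain. Of 21 genes for expression of mitochondrial DNA 8 rose, among them *Tfam*, the mitochondrial transcription factor that packs the DNA, by 0.74 (adjusted p = 0.00122). Cytochrome c, *Cycs*, rose by 0.83. Of 13 citric acid cycle genes 3 rose and *Cs*, citrate synthase, fell by 0.95. Without WT recovery replicate 2 the numbers that rose were 3 of 14, 1 of 6, 2 of 18 and 1 of 3 for the assembly lists, 3 of 11 for coenzyme Q, 5 of 21 for mitochondrial DNA expression and 3 of 13 for the citric acid cycle, where 14.8% of all genes were called. *Pet100* (log2 fold change 0.35, edgeR adjusted p = 0.261), *Cycs* (0.63, adjusted p = 0.0631) and *Cs* (-0.80, adjusted p = 0.076) were not called without it, whereas *Cox16*, *Ndufaf6*, *Pdss1* and *Tfam* were. In *Cldn2*KO recovery the counts were 0 of 14, 1 of 6, 2 of 18 and 1 of 3 for the assembly lists in the same order, 1 of 11 for coenzyme Q, 1 of 21 for mitochondrial DNA expression and 4 of 13 for the citric acid cycle, all higher. No gene of these lists was called between genotypes in any state.

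Of 8 nuclear regulators of the pathway none was called in WT recovery, including *Nrf1*, *Gabpa* and the coactivators *Ppargc1a* and *Ppargc1b*, and their median was -0.03. In *Cldn2*KO recovery *Esrra*, a nuclear receptor that drives respiratory genes, rose by 0.39 (edgeR adjusted p = 0.0326) and *Yy1* by 0.35 (adjusted p = 0.0445). In WT AOM/DSS *Esrra* fell by 0.47 (adjusted p = 0.0279), *Pprc1*, a coactivator, rose by 0.99 (adjusted p = 0.0421), and 4 of 13 citric acid cycle genes fell, with *Cs* lower by 0.92 on the log2 scale (adjusted p = 0.0392). Without WT control replicate 2 *Cs* was the citric acid cycle gene still called (adjusted p = 0.0151), and *Esrra* and *Pprc1* were not (adjusted p = 0.0825 and 0.16).

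Promoters were available for 69 of the 84 nuclear members (RefSeq, GRCm38.p6, 250 bases before to 50 bases after each start). On either strand, GCGCANGCG, the core of the NRF1 motif, was found in 22 of the 69 (31.9%) and in 7.03% of 27025 genes. CCGGAAG, the ETS core bound by GABPA, was found in 19 (27.5%) and in 9.93% of all genes, AAGATGGCG, a YY1 motif, in 7 (10.1%) and 1.64%, and TCAAGGTCA, an ERR motif, in 2 (2.9%) and 0.466%. At least 1 of the 4 was present in 39 members (56.5%) and in 16.9% of all genes. The promoter of *Sdhd* held 3 of them, and that of *Ndufa4*, the member with the largest rise, held none. Both are shown with matches in capitals.
Sdhd (chr9:50603800-50604099, minus strand): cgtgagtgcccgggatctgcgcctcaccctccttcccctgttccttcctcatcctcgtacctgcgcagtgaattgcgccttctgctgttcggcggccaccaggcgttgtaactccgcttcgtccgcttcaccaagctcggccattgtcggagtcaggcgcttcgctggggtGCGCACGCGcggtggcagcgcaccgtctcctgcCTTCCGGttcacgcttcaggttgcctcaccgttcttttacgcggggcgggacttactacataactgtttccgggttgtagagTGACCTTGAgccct
Ndufa4 (chr6:11907401-11907700, minus strand): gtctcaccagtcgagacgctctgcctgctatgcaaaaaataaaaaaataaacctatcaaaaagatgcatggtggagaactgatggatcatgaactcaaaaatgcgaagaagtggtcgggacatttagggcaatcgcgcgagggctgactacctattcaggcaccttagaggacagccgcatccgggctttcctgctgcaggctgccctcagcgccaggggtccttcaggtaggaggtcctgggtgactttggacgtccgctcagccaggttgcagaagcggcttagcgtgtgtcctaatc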

How the data were processed

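RNA from mouse colon was sequenced in 18 libraries, 2 lanes each. The authors deposited raw read counts per gene and lane, made with featureCounts on GRCm38. The submitters' processing notes name HISAT2 and the methods name TopHat2. Versions, annotation, strand use and handling of reads with several matches were not given in the sources used here. Multi-matching reads bear on genes with close copies.

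The lanes of a library were summed. Of 47729 gene identifiers, 47310 matched GENCODE M21, and the others held at most 0.0292% of a library's reads. Depth was 17.6 to 27.4 M reads (median 19.6 M). Counts were tested with edgeR 4.0.16 (quasi-likelihood, TMM factors, 6 group means in 1 fit, 16937 genes after filterByExpr) in R 4.3.3, with Benjamini-Hochberg adjustment and a threshold of 0.05. CPM used TMM-scaled library sizes. DESeq2 1.42.0 and limma 3.58.1 (voom) were alternatives, beside other scalings, filters, covariates and left-out libraries. Tested on counts simulated for recovery against control in WT, the fit ran on 16602 genes and recovered 181 of 198 changed genes with 12 false calls. Detection by size of change was not tested there, so these counts are not carried over to the members. Copies were found with BLAST+ 2.17.0+ (at least 98% identity).

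The members and lists were chosen with earlier results of these data known. Named members were all mitochondrial genes, core subunits of each complex, isoform pairs, and up to 5 called members in each direction with the largest change. Other called members were named after their values were seen, to complete a complex. In the 3 control pairs, same-numbered libraries had correlations of 0.171, 0.0368 and 0.0717, so the numbers were not taken to pair samples.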

Additional observations from a re-analysis of the deposited data

Results flagged for a closer look

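For 3 nuclear members, every WT recovery library lay above and every *Cldn2*KO recovery library below the control libraries of its genotype. The ratio of the recovery to the control mean was 1.60 in WT and 0.787 in *Cldn2*KO mice for *Ndufa1*, an accessory subunit of complex I. For *Ndufb4*, also of complex I, it was 1.74 and 0.845, and for *Sdhaf4*, an assembly factor of complex II, it was 1.65 and 0.808. None of the 3 was called by edgeR as an interaction of genotype and recovery. WT recovery replicate 2 held the highest value of each in the control and recovery libraries. These were 3.09% of the 97 members, where 2.1% of the 16937 genes tested (355 genes) lay apart from control in opposite directions in the same way, and nothing particular to the members is read from the count.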

How the results depend on the processing

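The number of members called moved with the tool, the covariates and single libraries. The number of all genes called moved with the tool and with single libraries too, so the counts below alone are no result about the members. For *Cldn2*KO against WT in control (0), DESeq2 gave 2 and limma-voom 14. For *Cldn2*KO against WT in recovery (1), DESeq2 gave 33, limma-voom 12, *Hoxb13* as a covariate 4, and *Xist* as a covariate, the length trend removed, both libraries that stand apart left out or only the compared groups fitted gave 0, with 0 to 15 when 1 library was left out. For recovery in WT (36), limma-voom gave 64, *Xist* 5, *Hoxb13* 1, both libraries out 20 and the compared groups alone 1, with 3 to 52 when 1 library was left out. For recovery in *Cldn2*KO (2), upper-quartile scaling, *Xist* and *Hoxb13* gave 0, no mitochondrial genome or no filter 1, the compared groups alone 4, the length trend 5, DESeq2 6, both libraries out 8 and limma-voom 16, with 0 to 2 when 1 library was left out. For AOM/DSS in WT (12), no filter gave 6, DESeq2 23, limma-voom 21, the length trend 30, both libraries out 2, and *Hoxb13* or the compared groups alone 0, with 0 to 19 when 1 library was left out. For AOM/DSS in *Cldn2*KO (0), limma-voom gave 18, both libraries out 1 and the compared groups alone 4. The interaction for recovery (0) gave 4 by DESeq2 and 4 by limma-voom. The causes were not tested, and the *Hoxb13* covariate took its estimate from WT control replicate 2 against the other WT control libraries. Without WT control replicate 2, the ratio of summed mitochondrial means turned from 0.851 to 1.24 for *Cldn2*KO against WT in control and from 0.818 to 1.19 for AOM/DSS against control in WT. As a share of all reads without TMM factors, the nuclear ratio of recovery to control in *Cldn2*KO moved from 1.09 to 1.002. With the replicate number as a block, *Cldn2*KO against WT in control gave 0 calls, as without the block. Of the 51 calls, 20 were followed member by member, and their 354 values under the alternatives kept their direction, 222 on the same side of the threshold and 132 not past it. The length trend, the removal of both libraries and the list counts without 1 library were chosen after seeing the data. With 3 libraries a group and a biological coefficient of variation of 0.315, small changes of low genes may have been missed. Detection by size of change or by level was not tested.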
